A study of Mus musculus with 2 samples.

Results

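Embryonic-globin erythroid cells are fetal liver cells whose main β-like globin transcript was Hbb-y, the embryonic β-like gene, rather than the adult genes Hbb-bs and Hbb-bt. A cell was included if it held 300 to 5000 detected genes and at most 9% mitochondrial UMIs, at least 100 Hbb-y UMIs, and more Hbb-y UMIs than Hbb-bs and Hbb-bt UMIs together. Antibody counts played no part in the choice. This gave 80 of the 7355 cells that met the quality limits, or 1.09% (exact 95% counting interval 0.863 to 1.35%), out of 7863 deposited cells. A UMI, or unique molecular identifier, stands for 1 captured transcript molecule, counted at its 3′ end.

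The study followed erythroid differentiation in vivo with CITE-seq, which reads transcripts and DNA-tagged surface antibodies from the same single cells. All cells came from the pooled fetal livers of 7 C57BL/6 embryos at e13.5, with no other genotype or treatment given, and made up 1 cDNA library and 1 antibody library of the same cells. Ter119-positive cells were first depleted and then returned in a number equal to that of the Ter119-negative cells, so the share of any cell type here is not its share of the liver. There is no second library, so no statement below carries a test, and every interval covers counting error only.

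Mammalian erythropoiesis runs in waves. Primitive erythroid cells arise in the yolk sac, enter the circulation while still nucleated and mature there as a cohort, expressing embryonic globins (Hbb-y and Hbb-bh1 in the β cluster, Hba-x in the α cluster). Definitive erythroid cells are made in the fetal liver, express the adult genes, mature around macrophages and lose their nucleus before they enter the blood.

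The promoters of 2 embryonic globin genes and of an adult counterpart of each are given here because the chosen cells are set apart by which of these genes they transcribe. The windows run from 250 bases before to 50 bases after the annotated start (RefSeq, build GRCm38.p6, the patch release of the mm10 build to which the reads were mapped) and are written 5′ to 3′ on the strand of the gene. Capitals mark every match on either strand to CACCC, the core of sites bound by Klf factors, to CCAAT, to AGATAA, a form of the GATA factor motif, and to TGACC, the core of nuclear receptor sites, which reads GGTCA on the other strand. Other forms of the GATA motif, such as TGATAA, were not searched for and stay in lower case. Where matches overlap, as TGACC and CCAAT do in Hbb-y, the capitals run together.
Hbb-y promoter, chr7:103853158-103853457, minus strand: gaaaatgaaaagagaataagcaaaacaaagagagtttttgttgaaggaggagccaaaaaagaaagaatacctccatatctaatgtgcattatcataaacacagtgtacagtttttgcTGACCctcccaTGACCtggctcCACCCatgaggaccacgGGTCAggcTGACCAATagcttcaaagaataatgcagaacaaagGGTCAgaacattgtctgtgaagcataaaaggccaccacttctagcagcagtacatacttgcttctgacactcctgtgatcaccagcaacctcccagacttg
Hba-x promoter, chr11:32276350-32276649, plus strand: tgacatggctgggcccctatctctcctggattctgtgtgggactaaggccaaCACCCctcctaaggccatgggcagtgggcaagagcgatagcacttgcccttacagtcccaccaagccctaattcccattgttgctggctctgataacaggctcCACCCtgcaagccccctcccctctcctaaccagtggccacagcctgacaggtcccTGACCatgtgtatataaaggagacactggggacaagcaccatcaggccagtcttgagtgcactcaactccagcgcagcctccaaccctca
Hbb-bs promoter, chr7:103827879-103828178, minus strand: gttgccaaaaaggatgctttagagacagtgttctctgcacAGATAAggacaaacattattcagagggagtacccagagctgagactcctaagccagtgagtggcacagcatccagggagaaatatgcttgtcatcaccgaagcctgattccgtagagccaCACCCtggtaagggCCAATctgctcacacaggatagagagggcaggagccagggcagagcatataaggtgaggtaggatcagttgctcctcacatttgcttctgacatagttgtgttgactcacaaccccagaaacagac
Hba-a1 promoter, chr11:32283422-32283721, plus strand: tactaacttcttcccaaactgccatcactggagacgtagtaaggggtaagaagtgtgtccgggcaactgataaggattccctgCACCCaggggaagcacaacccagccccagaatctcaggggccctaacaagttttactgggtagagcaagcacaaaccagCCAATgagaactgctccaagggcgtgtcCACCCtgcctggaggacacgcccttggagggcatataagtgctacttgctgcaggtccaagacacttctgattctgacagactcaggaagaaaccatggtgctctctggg

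The Hbb-y window held 5 matches to TGACC, and its CACCC match began 111 bases and its CCAAT match 83 bases before the start. Hbb-bs held CACCC at 90 and CCAAT at 76 bases before the start, 1 AGATAA match at 210 bases and 0 matches to TGACC. The other adult β gene, Hbb-bt, held 3 CACCC, 3 CCAAT, 0 AGATAA and 1 TGACC match, so neither AGATAA nor the lack of TGACC was shared by the adult β windows. Hba-x held 2 CACCC matches, 1 TGACC match and 0 CCAAT matches, and Hba-a1 held 2 CACCC matches and 1 CCAAT match. Among 32851 mouse promoter windows of this length, 57.5% held CACCC, 37.4% CCAAT, 11.2% AGATAA and 40.5% TGACC on either strand. These are descriptions of letters in a window and say nothing of which factor is bound.

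The rule separated the cells with a wide margin. Of the cells within the quality limits, 2054 held 0 Hbb-y UMIs, 4963 held 1 to 4 and 255 held 5 to 14. No cell held 15 to 49, 2 cells held 50 to 99 (the higher of them 59), and 81 held 100 or more. The 80 chosen cells held 959 to 5123 Hbb-y UMIs each. Hbb-y made up a median of 91.7% of Hbb-y and adult β UMIs in them, and at most 95.5%. The cell nearest to the limit inside it held 3592 Hbb-y against 2044 adult β UMIs (63.7%), and the next 76.5%. The only cell outside it with 100 or more Hbb-y UMIs held 2220 against 3012. These values chose the cells and are given as a description.

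The quality limits removed a further 13 cells with 100 or more Hbb-y UMIs, all with more Hbb-y than adult β. Of these, 12 fell under the limit of 300 genes (197 to 292 genes) and 1 exceeded the mitochondrial limit. Only 23 deposited cells had fewer than 300 genes, so 52.2% of the cells removed for few genes were of the embryonic-globin kind. Without quality limits there were 93 such cells.

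The other embryonic globins, which the rule did not use, bear on the label. Hba-x, the embryonic α-like gene, was found at 37 to 394 UMIs in every one of the 80 cells (median 126.5), and at no more than 20 UMIs in any kept cell with fewer than 100 Hbb-y UMIs. These ranges do not overlap, but the only kept cell outside the rule with 100 or more Hbb-y UMIs held 123 Hba-x UMIs, inside the range of the 80. Hbb-bh1, the other embryonic β-like gene, was also present in all 80 cells, at 1 to 270 UMIs (median 25.5), but it did not mark them alone. At least 20 Hbb-bh1 UMIs were held by 44 of the 80 cells and also by 54 of 830 cells of the S3 gate and 40 of 849 of the S4/S5 gate, with up to 474 UMIs in a cell. Erythroid transcripts were present too. In CPM, or UMIs per 1000000 non-globin UMIs, Alas2, the erythroid heme synthesis enzyme, was at 3054 (20.1 in non-erythroid reference cells), Slc4a1, the anion exchanger band 3, at 634 (13.2), and Klf1, an erythroid transcription factor, at 303 (37.0).

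**Figure D1:**
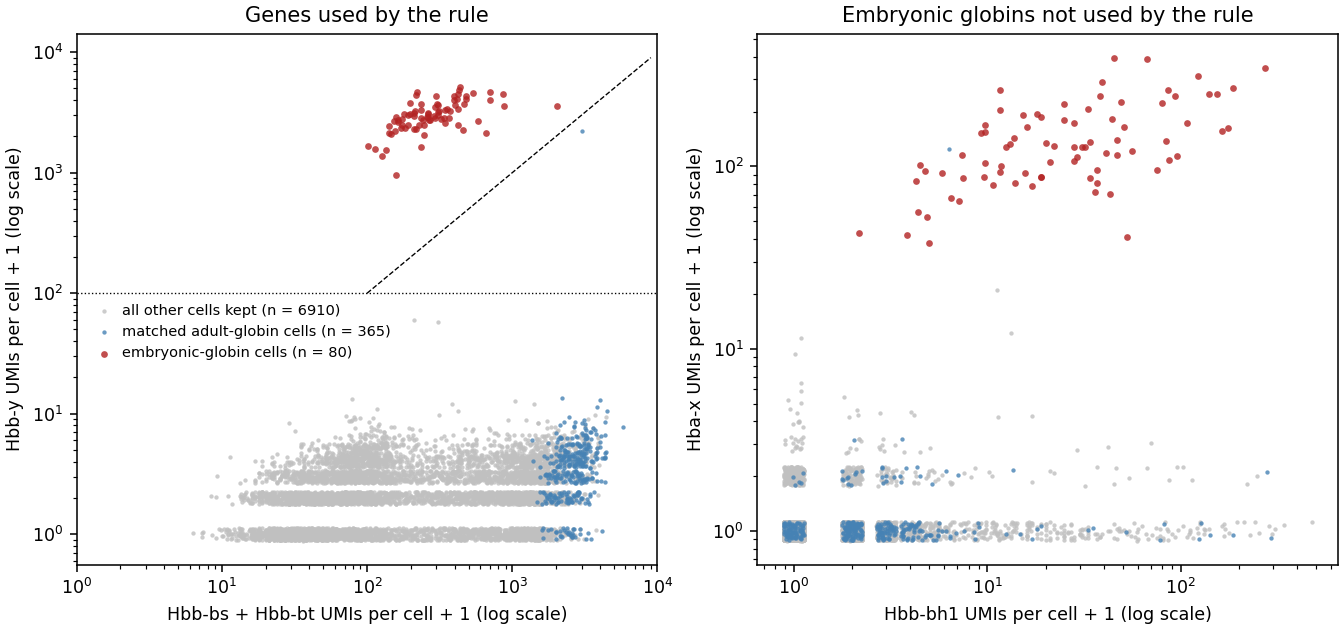
Each point is a kept cell; both axes of each panel give UMIs per cell plus 1 on log scales, and points below 15 UMIs are spread sideways to be visible. Left, Hbb-y against adult β-globin, with the limit of 100 UMIs (dotted) and equal counts (dashed); right, Hba-x against Hbb-bh1, where the 80 embryonic-globin cells lie at 37 or more Hba-x UMIs and other cells with many Hbb-bh1 UMIs lie near 0 Hba-x UMIs.

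Comparison cells were needed in which globin takes up a like part of the transcripts. Adult-globin cells were defined by the mirrored rule (at least 100 adult β UMIs and no fewer of them than Hbb-y UMIs). Those whose globin share of UMIs lay between the 10th and 90th percentiles of the embryonic-globin cells (72.0 to 85.1%) served as matched cells, and numbered 365. Of these, 299 lay in the S4/S5 gate and 35 in the S3 gate. S3 and S4/S5 are successive stages of terminally differentiating erythroblasts, rebuilt here from Ter119, CD71 and lineage antibody counts. The S3 (830 cells) and S4/S5 (849 cells) gates, without the embryonic-globin cells, are given side by side, and share cells with the matched group.

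The depth was close between the groups. Embryonic-globin cells held a median of 4982.5 UMIs and 463.5 genes per cell, of which 944 UMIs were not globin, against 4359 UMIs, 547 genes and 1014 non-globin UMIs in matched cells. Globin took up a median of 82.2% of UMIs in the former and 76.8% in the latter. In all, the 80 cells gave 433322 UMIs, 102477 of them not from globin genes.

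Among the 80 cells, 4 stood apart from the others. They held 1920 to 3397 genes, and globin made up only 21.5 to 47.5% of their UMIs, whereas the other 76 held at most 804 genes and at least 67.7% globin. These 4 cells contributed 30.6% of the non-globin UMIs of the group. Their CD44 antibody counts were 167 to 1842, against at most 65 in the other 76, and 1 of them was called a doublet by Scrublet, the only such call among the 80. Results for many of the genes and lists are therefore also given for the 76 cells.

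The globin transcripts of the embryonic-globin cells were dominated by Hbb-y with an adult α partner. Hbb-y made up 56.7% of all their UMIs, Hbb-bh1 0.767% and Hba-x 2.69%. Adult β-globin (Hbb-bs and Hbb-bt) made up 6.04%, and adult α-globin (Hba-a1 and Hba-a2) 10.1%. In matched cells the same quantities were 0.196%, 0.124%, 0.00970%, 59.3% and 17.2%. A single matched cell, the one with 2220 Hbb-y UMIs, carried 69.2% of the Hbb-y UMIs of its group. Without it, Hbb-y made up 0.0606% and Hba-x 0.00221% of the UMIs of matched cells. The total over all globins was 76.4% and 76.8%, a quantity on which the matched cells were chosen, and 81.6% in the 76 cells without those 4.

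Hbb-y accounted for 90.4% of Hbb-y and adult β UMIs, a share that the rule held above 50% in every cell. The rule did not use the α cluster, where Hba-x accounted for 21.0% (20.7 to 21.4%) of Hba-x and adult α UMIs. Within single cells the share of Hba-x ran from 6.06 to 49.2%, with a median of 20.5%, so adult α-globin was the larger part of the α-like transcripts in each of the 80 cells. The ratio of β-like to α-like UMIs is not independent of the choice of cells. Hbb-y, which the rule used, made up 245878 of the 275373 β-like UMIs of the 80 cells. As a description, the ratio was 4.97 (4.93 to 5.02) in embryonic-globin cells, with quartiles over cells of 4.57 and 5.47. It was 3.47 (3.46 to 3.49) in matched cells, with quartiles of 3.24 and 3.74, so the middle parts of the groups do not overlap. The quartiles of S4/S5 cells, at 2.98 and 3.52, also lay below those of the embryonic-globin cells. UMIs are counted at the 3′ end, without a length scale, and capture can differ between transcripts.

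**Figure D2:**
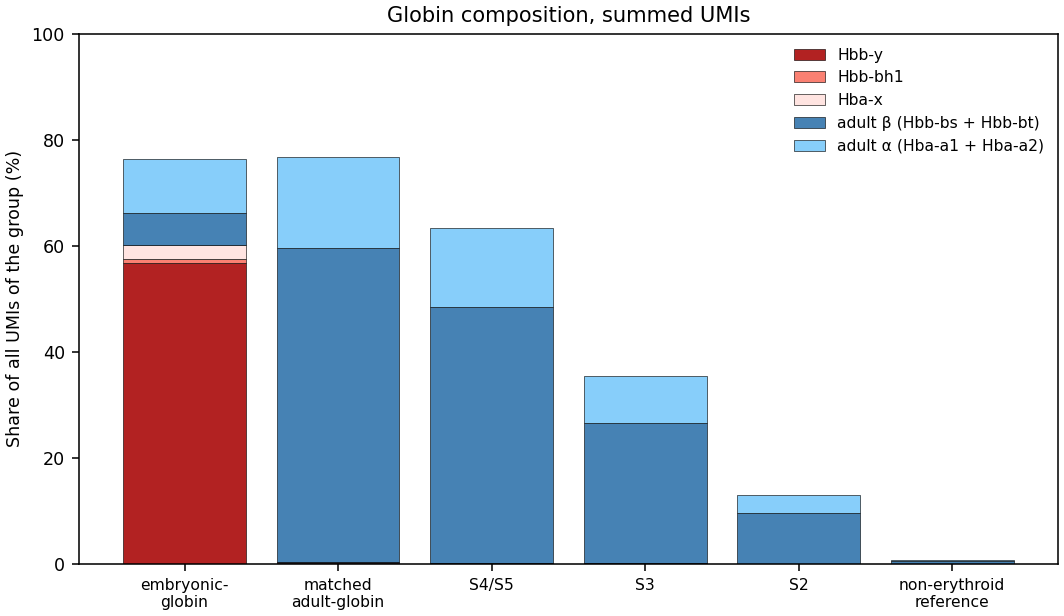
Stacked bars give the share of all UMIs of a group, in percent, for 5 globin classes, in embryonic-globin cells, matched adult-globin cells, the S4/S5, S3 and S2 gates and non-erythroid reference cells. Hbb-y makes up 56.7% in embryonic-globin cells, where adult α makes up 10.1%.

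Free globin RNA can be captured in any droplet, and the adult transcripts were set against cells that should lack them. Non-erythroid reference cells were 592 cells of the lowest Ter119 class rich in hepatocyte, macrophage, megakaryocyte or myeloid transcripts, with a median of 8638 UMIs. They held a median of 52 adult β UMIs (10 to 628) and 17 adult α UMIs (2 to 179), and a median of 1 Hbb-y UMI (0 to 11). Embryonic-globin cells held a median of 263 adult β UMIs (100 to 2044) and 556 adult α UMIs (165 to 1316), which is 5.06 and 32.7 times the reference. A single embryonic-globin cell lay below the 95th percentile of the reference for adult β. The balance between the adult copies was measured too. Hbb-bs made up 72.7% of adult β UMIs in reference cells and 72.6% in matched cells, but 55.2% (54.6 to 55.8%) in embryonic-globin cells. Hba-a1 made up 51.1%, 52.5% and 61.5% (61.0 to 62.0%) of adult α UMIs in the same order. Over single embryonic-globin cells the Hbb-bs share ran from 11.6 to 83.7% (quartiles 40.8 and 60.6%, median 50.2%). The interval of its pooled value does not cover this spread. Their Hba-a1 share had quartiles of 59.2 and 64.1%. In matched cells the quartiles were 70.1 and 76.3% for Hbb-bs and 51.2 and 54.0% for Hba-a1. The copies of each pair are nearly identical in sequence, so reads can be split between them by the counting. For comparison, cells of the S2 gate, which precedes S3, had 65.4% Hbb-bs and 60.4% Hba-a1. The part of free RNA in the adult globin UMIs of embryonic-globin cells was not tested.

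Antibody counts were used neither to choose the embryonic-globin cells nor to choose the matched cells. The clearest difference was in CD44, an adhesion receptor whose surface level declines as definitive erythroblasts mature. The tags of the 3 antibodies that the next values turn on were, in full:
CD44 antibody tag: gtctagacttcg
CD71 antibody tag: cgaagaaggagt
Ter119 antibody tag: gaggcgattgat
The CD44 tag was counted at a median of 8 per embryonic-globin cell (quartiles 4 and 10, range 0 to 1842) and of 30 per matched cell (quartiles 21 and 40, range 3 to 367), a ratio of medians of 0.267. Of the 80 cells, 70 lay below the lower quartile of the matched cells. The medians were higher still in S4/S5 (42) and S3 (80).

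CD71, the transferrin receptor, had a higher median than in matched cells. It was 354.5 in embryonic-globin cells (quartiles 109.25 and 732.25) and 194 in matched cells (quartiles 89 and 430), and 52 of the 80 cells lay above the matched median. The median was 297 in S4/S5 and 1402 in S3, gates that CD71 itself helps to define, and 1050.5 over all adult-globin cells. The spread was wide, from 17 to 2598, with 20 cells at 100 or less and 12 at 1000 or more. Ter119, an erythroid surface antigen, was counted at a median of 130 (quartiles 86.75 and 184.25) against 168 (128 and 202). The antibodies to cKit, CD45R and CD3e had medians of 12, 10 and 8 in embryonic-globin cells and of 13, 11 and 8 in matched cells, and the IgG control was counted 0 times in all 80. The cKit, CD45R and CD3e medians were low in both groups, so they cannot show whether staining was alike. The CD44 median of embryonic-globin cells, 8, equalled that of CD3e, and whether it lay above background was not tested.

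The transcripts of the antibody targets were sparse. Tfrc, which encodes CD71, was found at 8 UMIs, or 78.1 CPM, against 158 CPM in matched cells, and the counting interval of the ratio (0.204 to 1.04) includes equality. In the 76 cells it was at 3 UMIs, or 42.2 CPM, and S3 and S4/S5 cells held it at 471 and 348 CPM. Cd44 transcripts were found in 1 of the 80 cells, among the 4 set apart above, and at 0 UMIs in the other 76. By antibody gates, 41 of the 80 cells fell in S4/S5, 15 in S3, 3 in S2, 1 in S1, 0 in S0-medium and 3 in S0-low. A further 3 were above the lineage limit, and 14 fell in no gate.

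**Figure D3:**
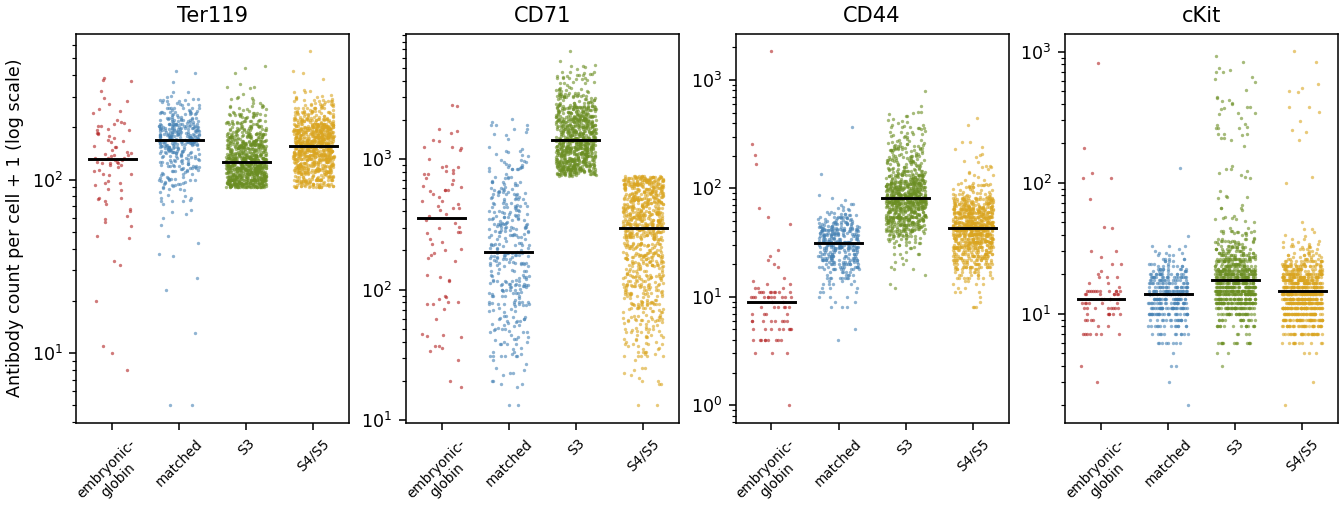
Points are cells and black lines medians of antibody counts per cell plus 1, on log scales, for 4 antibodies in embryonic-globin cells, matched adult-globin cells and the S3 and S4/S5 gates. The CD44 median is 8 in embryonic-globin cells against 30, 80 and 42 in the other groups; Ter119 and CD71 limits define S3 and S4/S5.

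Levels of all other genes were compared as CPM of non-globin UMIs. Ratios were taken on log2(CPM + 20), which understates the change of low genes, and intervals are exact counting intervals of the CPM ratio. Of 1572 genes with at least 100 CPM in either group, 189 (12%) were at least 2-fold higher in embryonic-globin than in matched cells and 194 (12.3%) at least 2-fold lower. Against matched, S3 and S4/S5 cells alike, 84 (5.34%) were higher and 97 (6.17%) lower. The balance depended on the scaling and on the comparison cells. As UMIs per cell, 273 genes were higher and 116 lower of 1489. As CPM of all UMIs, 35 were higher and 79 lower, but only 420 genes then reached 100 CPM. Against adult-globin cells matched on total UMIs, 156 were higher and 343 lower of 1778. The median log2 ratio over all genes was 0.01 in the first case and 0.34 for UMIs per cell, and without the 4 cells set apart 200 genes were higher and 261 lower of 1509.

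Genes were ranked by their ratio to matched cells among those past 2-fold against S3 and S4/S5 cells too. The 12 highest included nuclear RNAs, a tubulin and enzymes. Malat1, a long noncoding RNA kept in the nucleus, was found at a median of 34.5 UMIs per embryonic-globin cell (0 to 112) and 0 per matched cell (0 to 38). Its level was 31178 CPM against 639 CPM, a ratio of 48.8 (42.8 to 55.8). S3 and S4/S5 cells, at 7945 and 11413 CPM, lay between them. Neat1, another nuclear long noncoding RNA, was found at 30 UMIs in 24 embryonic-globin cells and at 0 in the 365 matched cells, at least 37.1-fold higher against a floor of 3 UMIs over the group, a bound that leaves out the counting error of the 30 UMIs. The exact 95% interval of the ratio began at 28.4. It too was present in S3 (41.4 CPM) and S4/S5 (94.9 CPM).

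Nudt4, a hydrolase of inositol pyrophosphates, was the most abundant of the 12 after Malat1. It was found at a median of 21 UMIs per embryonic-globin cell (0 to 77) and 1 per matched cell (0 to 8). Its level was 16599 CPM against 1025 CPM, a ratio of 16.2 (14.5 to 18.1), with 676 CPM in S3 and 967 in S4/S5. Tuba1a, an α-tubulin, was at 1805 CPM against 21.0 CPM, with UMIs in 58 of 80 and 8 of 365 cells. Its level did not exceed 14.8 CPM in S3 or S4/S5. Hsd3b6, a hydroxysteroid dehydrogenase, was at 2401 CPM against 92.0 CPM, a ratio of 26.1 (18.3 to 38.3). These genes were each at least 16.2-fold higher by CPM, and their levels in the 76 cells (23039 CPM for Nudt4, 2572 for Tuba1a, 3346 for Hsd3b6) were higher still.

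Pdzk1ip1, which encodes a small membrane protein, was found at 2118 CPM in embryonic-globin cells and at 44.7 CPM in matched cells (ratio 47.4, 28.9 to 82.9). Its neighbour Tal1, a transcription factor required for all blood formation, was at 605 CPM against 102 CPM (ratio 5.90, 3.89 to 9.05). Tal1 lies at chr4:115056426-115071755 and Pdzk1ip1 at chr4:115088708-115093894 (GRCm38.p6), 16952 bases apart with 0 annotated genes starting between them. Both were thus higher, by different amounts. S3 and S4/S5 cells held Tal1 at 316 and 241 CPM, and Pdzk1ip1 at 51.5 and 79.0 CPM.

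The remaining genes of the 12 were less abundant. Hmox1, heme oxygenase, was at 1708 CPM against 42.1 CPM, with UMIs in 32 of 80 cells and 15 of 365. Fam174b was at 722 CPM against 5.26 CPM, and Pls3, an actin-bundling plastin, at 371 CPM against 2.63 CPM. Mdk, the growth factor midkine, was at 234 CPM against 5.26 CPM. Ackr3, a scavenging chemokine receptor (24 UMIs), and Trib3, a stress-induced pseudokinase (15 UMIs), were at 0 UMIs in matched cells, and at least 29.7-fold and 18.6-fold higher against the floor, with exact intervals that began at 22.3 and 13.3. None of these 6 exceeded 25.1 CPM in S3 or S4/S5 cells. In the non-erythroid reference cells Malat1 was at 2247 CPM, and the other 11 genes were at or below the 89.5 CPM of Tuba1a.

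Of the 12 lowest genes, chosen in the same way, 9 are described here, among them a membrane protein, enzymes and ubiquitin factors. Eif5, a translation initiation factor, was found at a median of 0 UMIs per embryonic-globin cell (0 to 16) and 4 per matched cell (0 to 19). Its level was 742 CPM against 5267 CPM, or 7.10-fold lower (5.65 to 9.05). Cmas, which activates sialic acid, was found at medians of 0 (0 to 6) and 1 UMI (0 to 9), and at 185 CPM against 1693 CPM, a ratio of 0.110 (0.0655 to 0.172). The levels of Eif5 and Cmas in S3 cells were 1692 and 636 CPM, above those of the embryonic-globin cells as their choice required.

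Mpp1, a palmitoylated protein of the membrane skeleton, was found at 2 UMIs in the 80 cells (19.5 CPM) and at 338 UMIs in matched cells (888 CPM). Pepd, a peptidase that cleaves proline dipeptides, was found at 1 UMI against 137 (9.76 against 360 CPM). Dnaja4, a co-chaperone, was found at 1 UMI against 81 (9.76 against 213 CPM). With so few counts the intervals are wide, 12.5- to 377-fold lower for Mpp1. These genes were found in at most 2 of the 80 cells. Dcaf12, a ubiquitin ligase adaptor, was at 78.1 CPM against 880 CPM, and Tfdp2, a partner of E2F factors, at 107 CPM against 915 CPM. Ube2c, a ubiquitin-conjugating enzyme of mitosis, was at 312 CPM against 2197 CPM. Pla2g16, a phospholipase, was at 39.0 CPM against 434 CPM. That S3 and S4/S5 cells also lay above the embryonic-globin cells was a condition for the choice of these 9 genes.

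**Figure D4:**
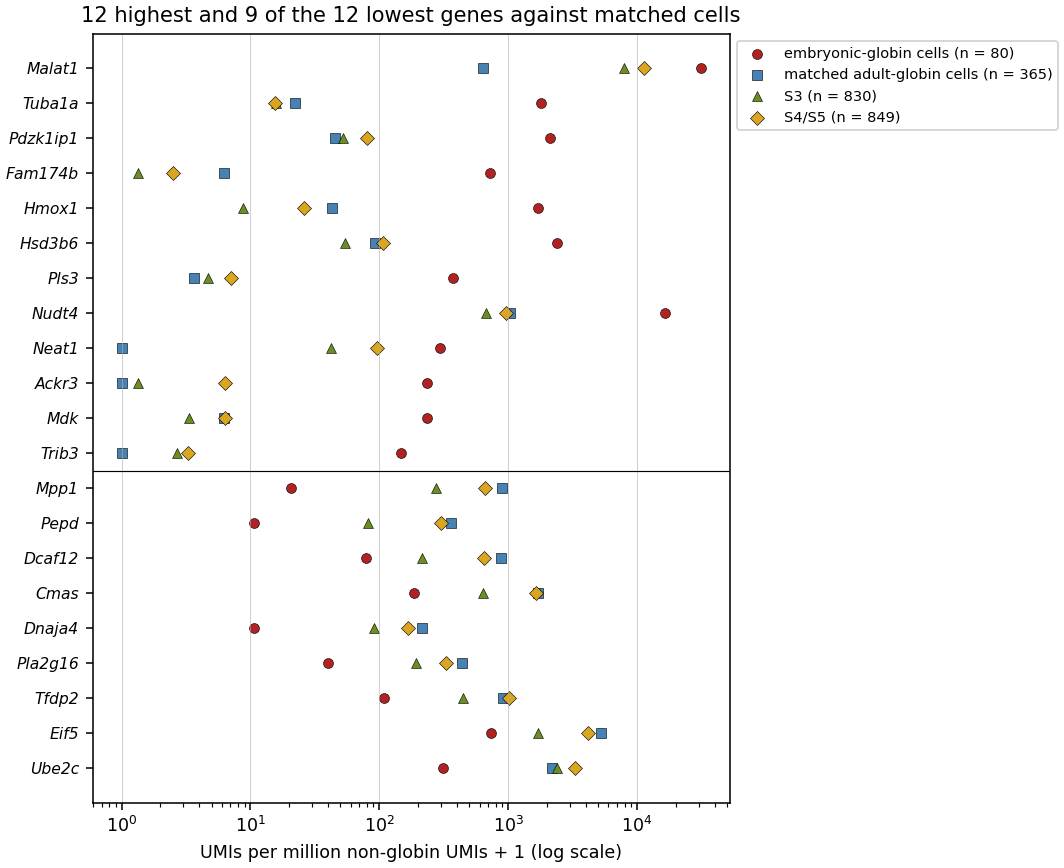
Levels of the 12 highest and 9 of the 12 lowest genes in CPM plus 1, on a log scale, in 4 groups of cells. Embryonic-globin cells (circles) lie to the right of the other groups for the upper 12 genes, as for Nudt4 (16599 against 1025 CPM), and to the left for the lower 9, as for Eif5 (742 against 5267 CPM). The genes were chosen to lie past 2-fold against each of the other groups.

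Gene groups are described by how many of their members lay past 2-fold, beside 12% higher and 12.3% lower among all 1572 genes. In the 76 cells 11.3% of the same genes were higher and 16.7% lower, with a median log2 ratio over all genes of -0.23, and against S3 cells the median over the same 1572 genes was -0.11. Of 30 regulators of globin switching and of the fetal program, only 6 reached 100 CPM, 1 of them higher and 0 lower. Bcl11a, a repressor of embryonic and fetal β-like globins, was found at 13 UMIs in 7 of 80 cells (127 CPM) against 94.6 CPM in matched cells. The interval of this ratio (0.653 to 2.59) includes equality, and 9 of the 13 UMIs lay in the 4 cells set apart. Klf1, a driver of adult β-globin, was at 303 CPM against 392 CPM (ratio 0.772, 0.507 to 1.14), and at 1115 CPM in S3. Zbtb7a, also a repressor of fetal globin, was the higher one at 117 CPM against 39.4 CPM, and at 209 CPM in S3. It was not past 2-fold in the 76 cells (84.3 CPM), where 0 genes of the list were higher. Sox6, which silences Hbb-y in definitive cells, was singled out after its values were seen. It was found at 0 UMIs in embryonic-globin cells, which allows up to 29.3 CPM (3 UMIs). It was at 42.1 CPM in matched, 154 in S3 and 171 in S4/S5 cells, at least 1.44-fold higher in matched cells, 5.26-fold in S3 and 5.84-fold in S4/S5 against that floor. The exact interval against matched cells began at 1.04.

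Of 20 erythroid transcription factors, 10 reached 100 CPM, and 3 were higher and 3 lower. The higher ones were Tal1, its relative Lyl1 (361 against 108 CPM) and the small Maf protein Mafg (254 against 42.1 CPM). E2f2, a regulator of cell cycle exit, was found at 1 UMI against 61 (9.76 against 160 CPM). Foxo3, a regulator of antioxidant genes, was at 48.8 against 194 CPM. Lmo2, the other lower one, was at 185 against 594 CPM, with 830 CPM in S3 and 881 CPM in S4/S5 cells. None of the 3 higher genes was past 2-fold against S3 cells. The levels of Lyl1 and Mafg in S3 cells were 252 and 195 CPM, closer to those of the embryonic-globin cells.

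Of 13 heme synthesis and transport genes considered, 5 were lower and 1, Hmox1, which degrades heme, was higher, with a median log2 ratio of -0.90 beside 0.01 over all genes. In the 76 cells 4 were lower and 2 were higher, with a median of -0.79 beside -0.23. Alas2 was found at a median of 3 UMIs per embryonic-globin cell (0 to 22) and 10 per matched cell (1 to 27). Its level was 3054 CPM against 10216 CPM (ratio 0.299, 0.266 to 0.336). S3 cells, at 2352 CPM, lay below the embryonic-globin cells, and S4/S5 cells, at 6268 CPM, above them. The median over the list was -1.23 against S3 and -1.34 against S4/S5 cells, beside -0.11 and 0.05 over all genes. Urod, a later enzyme of the pathway, was at 439 against 1390 CPM, and Slc25a37, the mitochondrial iron importer, at 390 against 1430 CPM.

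Of 7 genes of iron uptake and handling considered, 2 were higher and 1 was lower, and in the 76 cells 1 was higher and 2 were lower. Fth1, the ferritin heavy chain, was found at a median of 71 UMIs per embryonic-globin cell (24 to 188) and 26 per matched cell (2 to 79). Its level was 60043 CPM against 26863 CPM (ratio 2.24, 2.17 to 2.31), and at 14192 CPM in S3 and 19091 CPM in S4/S5 it was lower there too. Ftl1, the light chain, was at 54285 against 41839 CPM (ratio 1.30, 1.26 to 1.34), within 2-fold. The lower one was Glrx5, an iron-sulfur cluster protein (1776 against 3800 CPM). The other higher one, the iron exporter Slc40a1 (15 UMIs), was not past 2-fold in the 76 cells.

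Membrane and maturation genes included more lower than higher members. Of 17 membrane skeleton and glycoprotein genes, 6 were lower and 1 was higher (median log2 ratio -0.64). In the 76 cells 5 were lower and 1 was higher, and their median of -0.30 lay near the -0.23 of all genes. Against S3 and S4/S5 cells the median over the list was -1.35 and -1.44, beside -0.11 and 0.05 over all genes. Besides Mpp1, Cd24a, a small surface glycoprotein, was at 1639 against 5750 CPM, and Ermap, a blood group protein, was the higher one at 283 against 92.0 CPM. Of 20 genes of nuclear condensation and organelle clearance, 7 were lower and 1 was higher (median -0.57), and 6 and 2 in the 76 cells (median -0.43). Against S3 cells the median was -0.11, that of all genes, but against S4/S5 cells it was -0.63, beside 0.05 over all genes. Xpo7, a nuclear exporter used in condensation, was found at 5 UMIs of 102477 non-globin UMIs, against 122 of 380486. Trim10, an erythroid ring-finger protein, was at 410 against 1853 CPM. Bnip3l, the receptor that clears mitochondria, was at 3210 against 5201 CPM, within 2-fold, while its relative Bnip3 was at 449 against 39.4 CPM.

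Among 15 antioxidant, carbonic anhydrase and glycolytic genes, 4 were lower and 1 was higher (median -0.43). Against S3 cells the median turned to 0.52, but against S4/S5 cells it was -0.11, beside -0.11 and 0.05 over all genes. Gpx1, a glutathione peroxidase, was at 7680 against 27581 CPM, and Bpgm, which makes the oxygen-affinity regulator of hemoglobin, at 2937 against 6486 CPM. S3 cells held Bpgm at 553 CPM, below the embryonic-globin cells. Prdx1, a peroxiredoxin, was at 1981 against 833 CPM. Car2, a carbonic anhydrase, was at 7289 against 13974 CPM, within 2-fold. In the 76 cells, 1 gene of this group was lower and 3 were higher. Of 3 solute carriers considered, 2 were lower: the glucose transporter Slc2a1 (87.8 against 268 CPM) and the lactate carrier Slc16a1 (19.5 against 176 CPM). S4/S5 cells held Slc2a1 at 1668 CPM.

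The list of the Epo receptor, Kit and survival genes gave 3 genes to compare, 1 higher and 1 lower. Bcl2l1, an anti-apoptotic gene, was at 273 against 1135 CPM, Pim1, a kinase, at 673 against 463 CPM, and Zfp36l2, an RNA-binding protein of progenitors, at 303 against 63.1 CPM. Among 12 genes of translation control, 3 were lower and 1 was higher (median log2 ratio 0.21). The counts in the 76 cells were also 3 and 1, with a median of -0.33. Eif2ak1, the heme-regulated kinase of translation, was found at 4 UMIs of 102477 non-globin UMIs, against 73 of 380486. Btg1, an antiproliferative gene, was at 468 against 44.7 CPM. Of 72 ribosomal protein genes, 1 was higher and 0 were lower, with a median log2 ratio of 0.24, and 0.13 in the 76 cells. The median over these genes was -0.15 against S3 cells but 0.34 against S4/S5 cells, beside -0.11 and 0.05 over all genes.

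Of 3 D cyclins and CDK inhibitors considered, 0 lay past 2-fold, and of 3 imprinted growth genes 1 was lower. The proliferation and mitochondrial groups depended on the 4 cells set apart. Of 13 S phase genes, 0 were higher and 1 was lower (median log2 ratio -0.39), but 5 were lower in the 76 cells (median -0.94, beside -0.23 over all genes). Rrm2, a ribonucleotide reductase subunit, was at 410 CPM in the 80 and 295 CPM in the 76 cells against 673 CPM. Of 11 genes of G2 and mitosis, 2 were lower, Ube2c and Nusap1, a spindle protein (137 against 894 CPM), and 4 were lower in the 76 cells. The median of these 11 genes was -0.29, and -0.61 in the 76 cells. Against S3 and S4/S5 cells it was -1.76 and -1.23, beside -0.11 and 0.05 over all genes. The S phase genes had medians of -0.89 and -0.08 in the same order. Of 9 mitochondrially encoded genes, 1 was higher and 1 lower in the 80 cells (median -0.14), and 0 and 6 in the 76 cells (median -1.55). Against S3 and S4/S5 cells the median over the 80 cells was -0.91 and -0.39. Mitochondrial transcripts made up 2.56% of the non-globin UMIs of the 80 cells, 1.26% in the 76 and 5.51% in the 4, against 3.57% in matched and 3.73% in S4/S5 cells. Per cell, their median share of all UMIs was 0.193% against 0.777% in matched cells, with an upper quartile of 0.324% in the former and a lower quartile of 0.623% in the latter, so that the middle parts of the groups do not overlap.

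**Figure D5:**
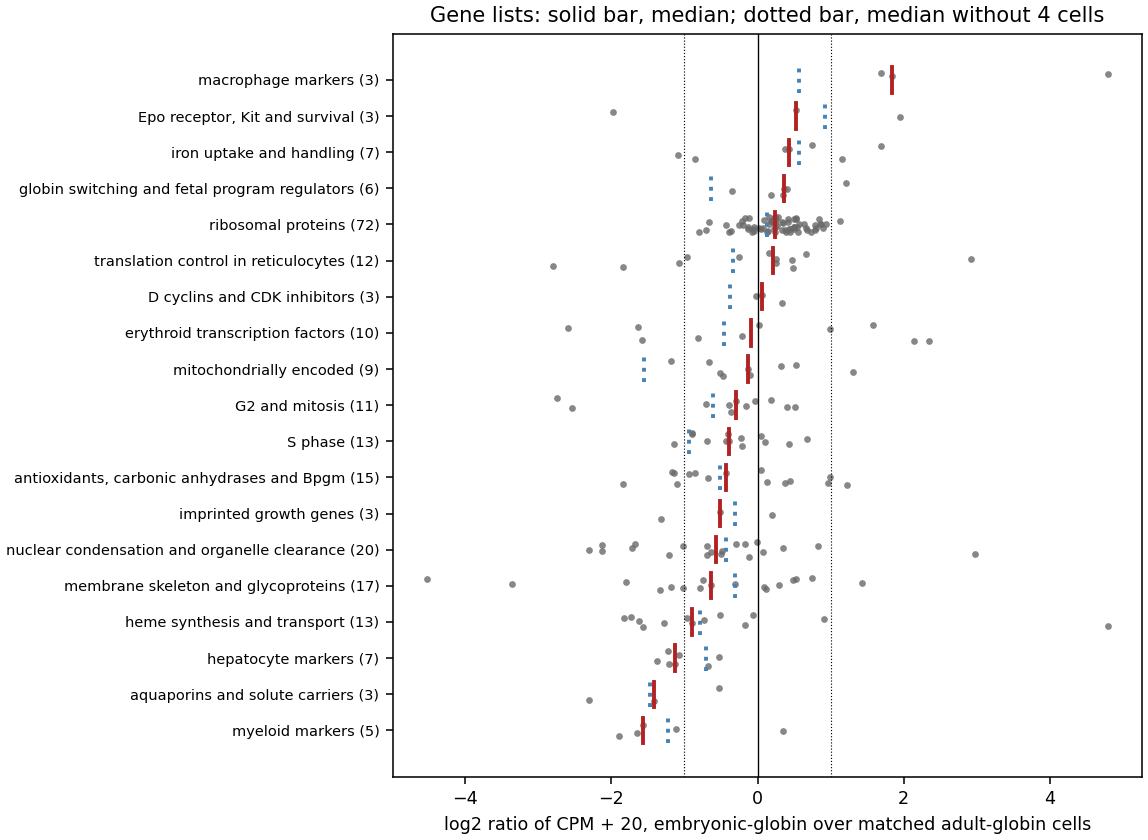
Points are genes, placed by the log2 ratio of CPM + 20 in embryonic-globin over matched adult-globin cells, in lists with at least 3 genes considered (number in brackets). Solid bars are medians over all 80 cells and dotted bars medians without 4 cells of low globin share; the mitochondrial median moves from -0.14 to -1.55, while that of membrane genes moves from -0.64 to -0.30 and that of all genes from 0.01 to -0.23. Vertical lines mark the median of all genes and 2-fold.

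Markers of other cell types were examined beside these results. Hmox1 is also a macrophage gene. Of 12 macrophage markers, 3 reached 100 CPM, and 3 were higher in the 80 cells but 1 in the 76. The other 11 macrophage markers summed to 57 UMIs in the 80 cells, of which 45 lay in the 4 cells set apart, and Cd68 and Mrc1 were at 0. Their level was 556 CPM in all 80 and 169 CPM in the 76 cells, against 134 CPM in matched cells and 17278 CPM in 12 macrophage reference cells. Hmox1 was at 2052 CPM in the 76 cells and 3236 CPM in the macrophage reference cells. Of the 32 cells with an Hmox1 UMI, 6 held a UMI of another macrophage marker, as did 5 of the 48 without one. The most abundant hepatocyte marker, Afp, was at 537 against 1267 CPM in matched cells, and 5 of 7 hepatocyte markers considered were lower, but 1 in the 76 cells. The 12 hepatocyte markers summed to 1708 against 3948 CPM, and to 1799 CPM in S3 cells and 32012 CPM in the non-erythroid reference cells. Myeloid markers summed to 498 against 1133 CPM, with Lyz2 the most abundant, and megakaryocyte markers to 371 against 633 CPM, with 6 of 10 at 0. In S3 cells these sums were lower, at 222 and 309 CPM. Endothelial markers summed to 8 UMIs and lymphoid markers to 1 UMI in the 80 cells. The part of such RNA in the gene results was not tested.

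Sex-linked transcripts were sparse. Xist, expressed from the inactive X chromosome, had UMIs in 11 of the 80 cells, and a Y-linked gene (Ddx3y, Eif2s3y, Kdm5d or Uty) in 3 others. No cell held both and 66 held neither, which at this depth leaves most cells unassigned. In matched cells the same counts were 25, 14, 1 and 327 of 365.

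The 80 cells varied in the minor embryonic globins. Hbb-bh1 made up 0.0829 to 5.62% of Hbb-y and Hbb-bh1 UMIs (median 0.971%), and Hba-x 6.06 to 49.2% of α-like UMIs. Over cells, these shares had a Spearman's rho of 0.484 and a Pearson's r of 0.453 (n = 80), and a rho of 0.504 in the 76 cells. The cells share a library and differ in depth, so this is a description. The 40 cells with a lower Hbb-bh1 share had a median Hba-x share of 15.8% (quartiles 12.6 and 22.1%), and the 40 with a higher share 23.3% (17.8 and 31.1%). These ranges overlap widely. The CD71 antibody had medians of 465.5 and 288 in the same order, and the rho of CD71 with the Hbb-bh1 share was -0.174. Hbb-y itself made up nearly the same share of Hbb-y and adult β UMIs in both, with medians of 91.4 and 92.1%.

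Gene levels in these sets of cells, taken without the 4 cells set apart, were compared for the genes that lay highest. Malat1 was at 47737 CPM in the cells of lower and 37721 CPM in those of higher Hbb-bh1 share, Nudt4 at 25535 and 20916 CPM, and Hsd3b6 at 3242 and 3434 CPM. By ratio of CPM, the widest gap among the 12 was that of Ackr3, at 6 and 18 UMIs (183 and 468 CPM). Pls3 was at 367 and 624 and Mdk at 428 and 260 CPM. Eif5, among the lowest against matched cells, was found at 15 and 32 UMIs (459 and 832 CPM), both below the 5267 CPM of matched cells.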

How the data were processed

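Fetal liver cells of 7 pooled e13.5 C57BL/6 embryos were measured as 1 cDNA and 1 antibody library. The authors mapped cDNA reads to mm10 with Cell Ranger and assigned antibody tags with CITE-seq-Count. Both sets of raw counts were deposited: UMI counts per gene and cell (58606632 in all, median 5707 per cell) and counts per antibody and cell (median 1092). Whether antibody counts were collapsed by UMI is not given in the sources used here.

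The embryonic-globin cells and the gene lists were chosen with earlier results of these data known. Summed UMIs were divided by non-globin UMIs, and compared on log2(CPM + 20) for genes of at least 100 CPM in either group. The ratio was tried on simulated counts that held counting error alone and no variation between cells, so the trial does not cover such variation. There 200 of 200 changed genes had the right direction, and 16 of 1247 unchanged genes lay past 2-fold. Shares have exact Clopper-Pearson and ratios exact conditional binomial 95% intervals. Doublets were called with Scrublet at an expected rate of 6% (128 of 7863 cells) and kept. Antibodies were scaled by a centered log ratio and split by k-means (Ter119 into 3 classes) to rebuild the gates. Reference cells held at least 10 times the median share of a marker list and 20 of its UMIs.

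Named genes were the globins, the 12 highest and 12 lowest ratios against matched cells that were past 2-fold against S3 and S4/S5 too, and for each list up to 4 genes of largest ratio and 2 of highest level; 3 of the lowest genes are not reported here. Promoters of 6 globin genes came from RefSeq (GRCm38.p6). The globin copies are nearly identical and are summed where possible. Alternatives changed the denominator, pseudocount, gene minimum, comparison cells, doublets and rule. Tools were scanpy 1.11.5, scikit-learn 1.9.0, matplotlib 3.10.9, scipy 1.17.1, numpy 2.4.6 and pandas 2.3.3 in Python 3.11.15 (seed 7).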

Additional observations from a re-analysis of the deposited data

How the results depend on the processing

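No paired analysis was possible because each library had no replicate. Over 11 alternatives, the 24 named genes gave 264 ratios, of which 0 changed direction and 84 lay outside the counting interval of the first value, taken on the same log2(CPM + 20) scale. The genes were chosen as past 2-fold against S3 and S4/S5 cells too, so the ratios to those cells could not change direction. A minimum of 300 CPM changes which genes are considered, not their ratios, so those ratios could not change either. Another pseudocount changes the size of a ratio but cannot change its direction. The counts of genes past 2-fold, 189 higher and 194 lower, changed to 35 and 79 (of 420 genes) with all UMIs as denominator, to 32 and 85 (of 403) for the mean over cells of CPM of all UMIs, and to 56 and 116 (of 597) with a minimum of 300 CPM, which considers fewer genes. The count of lower genes was 116 for UMIs per cell, 343 against cells matched on total UMIs, 339 against S3 and 293 against S4/S5. Genes of the lists past 2-fold, 52 at first, numbered 31 with all UMIs, 30 for the mean over cells, 101 against cells matched on total UMIs, 98 against S3 and 81 against S4/S5. The median log2 ratio over all genes was -0.31 for the mean over cells, -0.24 against cells matched on total UMIs and -0.25 against S3, there over the genes that reach 100 CPM in that pair of groups. Hbb-y made up 58.9% of UMIs as a mean over cells, 57.1% in the 79 cells with at least 2 times as many Hbb-y as adult β UMIs, and 60.7% without the 4 cells under 50% globin, an alternative added after the data were examined. The CD44 ratio of medians was 0.111 against cells matched on total UMIs. The cause of these changes was not tested. With a median of 944 non-globin UMIs per cell, low genes can be read only as sums over cells. Even Hmox1, at 1708 CPM, had a median of 0 UMIs per embryonic-globin cell.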
